A study of Homo sapiens with 6 samples.

Results

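IER2, IER3, CSRNP1, NR4A1 and CEBPB are genes of the early transcriptional response to growth factors and stress, and their RNA was followed here in LX-2, a line of human hepatic stellate cells. Each gene was read from the summed counts of non-coding rows whose exons overlapped, by 50 bp or more, only that gene's exons on the other strand. These 5 genes are among 1699 genes with such a reading and among the 1443 of them that passed the filter on low counts. All 5 passed it, and all 5 had counts in every library. The cells, labelled WT, received FEBJ (Brucea javanica fruit extract), cynaroside (the flavone luteolin bound to glucose) or the DMSO control for 24 h. Each of these 3 groups had 2 libraries of total RNA. Doses are not in the labels, and nothing there tells separate cultures from repeat libraries of 1 culture, so p-values measure the spread between these libraries only, which may be technical. For these readings that spread came almost wholly from a trend over all tested genes, not from each gene's own libraries.

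Immediate early genes are switched on within minutes to hours of a signal, without new protein synthesis, and most of their transcripts are short-lived. Signals reach them mainly through MAP kinases, cyclic AMP and NF-kappaB, and many encode transcription factors or proteins that feed back on the signal. CEBPB encodes C/EBP-beta, a leucine zipper transcription factor known in the liver for the acute phase response and regeneration, and NR4A1 is known in mice as a brake on TGF-beta-driven fibrosis.

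Depth in gene rows was 2507734 and 3524136 counts in the FEBJ libraries, 1599000 and 4709317 in the cynaroside libraries, and 2537896 and 3720981 in the DMSO libraries. These were 5.48 to 6.12% of all counts, and 87.4 to 88.3% lay outside every annotated feature. Pearson correlations of log CPM (counts scaled to a library size of 1e6) were 0.941 to 0.955 within groups and 0.726 to 0.829 between groups. Of 14 stellate and mesenchymal markers, 5 had no count in their own row in any library, COL1A2, DES, LRAT, LUM and DCN. The summed level of the marker rows was 54.7 to 62.9 CPM with FEBJ, 126 to 156 CPM with cynaroside and 766 to 767 CPM with DMSO, most of it in the COL1A1 and VIM rows. The rows opposite NGFR, ACTA2 and THY1 did not follow that order once depth is allowed for. The row opposite NGFR held 639 and 957 counts with FEBJ, 55 and 118 with cynaroside, and 78 and 130 with DMSO, and that opposite ACTA2 held 315 and 426, 326 and 1179, and 276 and 387 counts in the same groups. For THY1 the counts were 564 and 745, 650 and 1966, and 855 and 1261. The rows opposite SPARC (32 and 54, 284 and 850, 574 and 860) and VIM (68238 and 95756, 66830 and 195788, 124589 and 181211) followed the summed order. That opposite DES held at most 6 counts in any library. The row opposite VIM fell less with FEBJ than the VIM own row, which had 47.8 and 44.0 CPM, against 380 and 354 CPM with DMSO. In bulk RNA, fewer cells of a kind and less RNA per cell cannot be told apart. Among rows of other cell types, ALB, PTPRC, PECAM1 and EPCAM had no count in any library. The summed rows came to 10.8 to 12.3 CPM with FEBJ, 0 with cynaroside and 0.243 to 0.707 CPM with DMSO for 7 hepatocyte markers, 4 of them at 0 throughout and nearly all of the FEBJ sum in the SERPINA1 row. For 6 macrophage markers they were 10.3 to 10.8, 3.78 to 6.86 and 1.77 to 2.19 CPM in the same order of groups, with 2 at 0. For 6 endothelial markers they were 160 to 170, 170 to 177 and 125 to 128 CPM, with 3 at 0 and nearly all of the sum in the STAB1 row. For 7 epithelial markers they were 1524 to 1541, 664 to 674 and 1618 to 1625 CPM, with 2 at 0 and most of the sum in the KRT8 row. The row opposite KRT7, unlike that sum, was far higher with FEBJ than with DMSO. It held 1051 and 1243 counts with FEBJ, 62 and 110 with cynaroside, and 164 and 222 with DMSO. Rows opposite CDH1, APOA1 and LYZ held at most 15 counts in any library. The part of other cell types in the results was not tested.

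The rows read for the 5 genes differ in how much of them lies on the gene, in the GENCODE 29 annotation of GRCh38. The IER2 row, AC011446.2 on chromosome 19, has 946 exon bases and all of them face IER2 exons, 492 on coding sequence, 116 on the 5' UTR and 338 on the 3' UTR. The NR4A1 row, AC025259.3 on chromosome 12, has 754 of 915 bases on NR4A1 exons, 562 of them on the 3' UTR. The IER3 row, IER3-AS1 on chromosome 6, has 359 of 527 bases on the 3' UTR of IER3 and the rest downstream. For the other two genes most of the row lies elsewhere. The CSRNP1 row, AC092053.2 on chromosome 3, has 204 of 1818 bases, or 11.2%, on the 5' UTR of CSRNP1, with 1453 facing introns. The CEBPB row, CEBPB-AS1 on chromosome 20, has 231 of 2648 bases, or 8.72%, on CEBPB coding sequence and 2417 upstream of the gene. Over all 1828 rows read this way the median share on the gene was 33.8%. The strand setting of the counting step is not given in the sources used here, so RNA of the gene and RNA transcribed from the opposite strand cannot be told apart in these values. In all 6 libraries together the row opposite held 14077 counts and the own row 132 for IER2, 2744 and 122 for IER3, 721 and 39 for CSRNP1, 2055 and 17 for NR4A1, and 4507 and 171 for CEBPB.

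**Figure D1:**
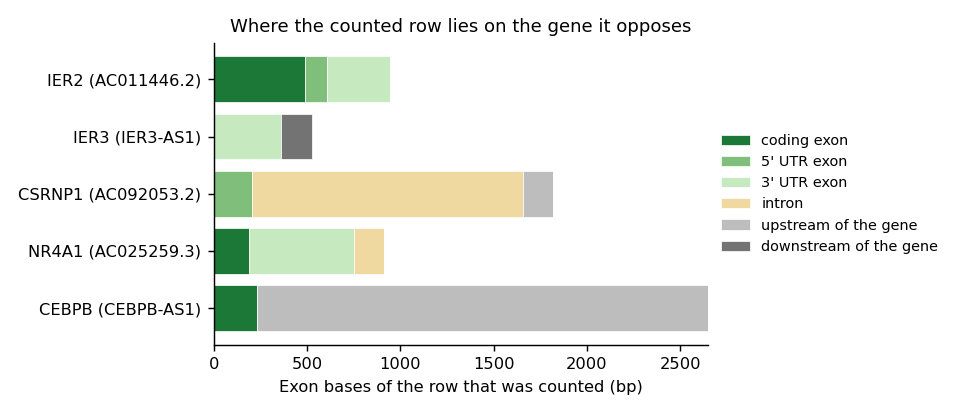
Exon bases of the row counted for each gene (horizontal axis, bp), by what they face on that gene. The IER2 row lies wholly on IER2 exons, whereas 2417 of the 2648 bases of the CEBPB row lie upstream of CEBPB.

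The promoter windows of these genes are shown because cyclic AMP and stress signals act on early genes through CREB and ATF factors, whose half-site is TGACG. RefSeq windows on GRCh38.p14, each 250 bases before to 50 after a start site, were at hand for IER2, CSRNP1, NR4A1 and CEBPB, 7 windows in all. TGACG, on either strand, was found in 3 of the 7 windows, and 24.6% of all 35116 windows hold it. The windows that hold it follow on the gene's strand, with TGACG or its reverse complement CGTCA in capitals, for IER2 (chr19:13150161-13150460, plus strand), CSRNP1 (chr3:39153542-39153841, minus strand) and CEBPB (chr20:50190580-50190879, plus strand).
IER2: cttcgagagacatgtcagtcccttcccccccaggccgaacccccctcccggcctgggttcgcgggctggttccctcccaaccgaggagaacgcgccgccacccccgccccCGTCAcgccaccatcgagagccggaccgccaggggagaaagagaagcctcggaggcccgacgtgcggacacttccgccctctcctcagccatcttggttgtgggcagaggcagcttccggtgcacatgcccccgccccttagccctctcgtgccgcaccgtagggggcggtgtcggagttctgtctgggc
CSRNP1: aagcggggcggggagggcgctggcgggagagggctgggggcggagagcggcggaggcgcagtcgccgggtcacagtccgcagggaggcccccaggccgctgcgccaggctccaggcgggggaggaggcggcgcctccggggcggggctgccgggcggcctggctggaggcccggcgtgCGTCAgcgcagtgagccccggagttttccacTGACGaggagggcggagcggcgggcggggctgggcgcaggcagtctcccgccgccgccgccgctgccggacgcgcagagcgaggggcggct
CEBPB: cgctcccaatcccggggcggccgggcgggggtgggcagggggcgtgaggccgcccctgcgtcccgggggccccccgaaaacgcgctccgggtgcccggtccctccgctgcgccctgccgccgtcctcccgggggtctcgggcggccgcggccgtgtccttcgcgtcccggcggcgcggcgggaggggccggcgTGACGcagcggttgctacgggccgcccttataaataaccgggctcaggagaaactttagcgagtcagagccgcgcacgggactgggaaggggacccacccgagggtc
In IER2 the half-site begins 140 bases before the start, in CEBPB 57 bases before it, and in CSRNP1 2 half-sites begin 72 and 41 bases before it. All 300 bases of this CSRNP1 window lie within exons of AC092053.2, the row from which CSRNP1 was read. The full CRE (TGACGTCA, in 1.85% of all windows), the AP-1 site (TGANTCA, 7.71%), the C/EBP palindrome (TTGCGCAA, 0.151%), the NR4A site (AAAGGTCA, 1.22%) and the CArG box (1.29%) were not in any of the 7 windows, with both strands searched. The full CRE contains the half-site. The GC content of the 7 windows was 53.3 to 80.7%, against a median of 58.7% over all windows.

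The 5 genes did not move as one block. In FEBJ versus DMSO, 4 of them rose, IER2, IER3, CSRNP1 and NR4A1, and CEBPB did not pass the test. Of all 1443 genes tested, 35.9% rose and 34.5% fell in that comparison. In cynaroside versus DMSO, NR4A1 rose, IER2, IER3 and CEBPB fell, and CSRNP1 did not pass the test, where 20% of all genes rose and 21.5% fell. Set directly against cynaroside, FEBJ gave higher IER2, IER3, CSRNP1 and CEBPB and lower NR4A1, where 35.6% of all genes rose and 34.1% fell. In either direction the calls numbered 4, 4 and 5 of the 5 genes, where 70.4%, 41.4% and 69.6% of all genes were called. The median log2 fold change of the 1443 genes was 0.05, -0.01 and 0.04 in these comparisons. The comparisons with DMSO share the DMSO libraries.

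**Figure D2:**
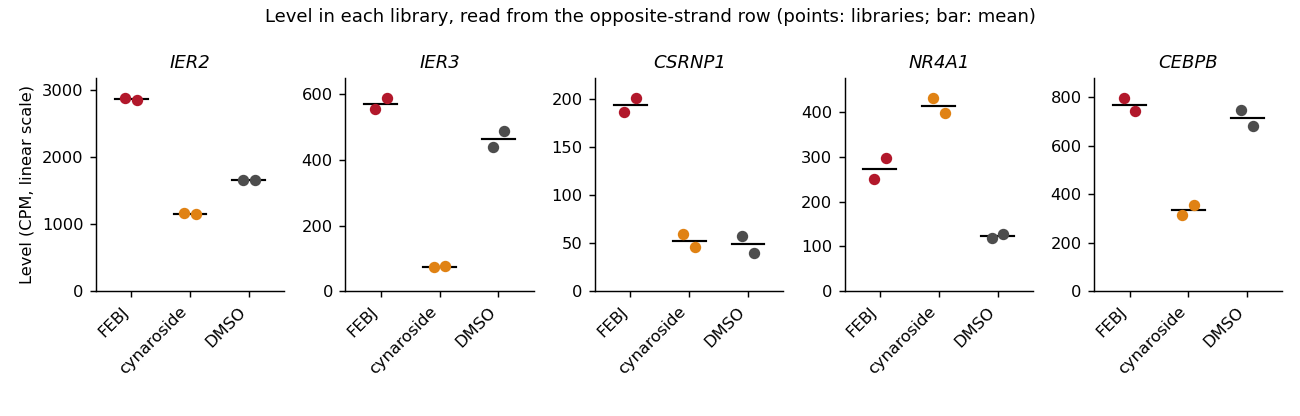
Level of each gene (vertical axis, CPM of the row opposite, linear from 0) in the FEBJ, cynaroside and DMSO libraries; points are libraries and bars are means of 2. NR4A1 is highest with cynaroside, and the other genes are highest with FEBJ, which overlaps DMSO for CEBPB.

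IER2 encodes a nuclear protein induced by growth factors that takes part in transcriptional control. It had 2886 and 2854 CPM in the FEBJ libraries, 1161 and 1146 CPM in the cynaroside libraries, and 1657 and 1663 CPM in the DMSO libraries. The groups did not overlap, and replicates lay within a few percent of each other. The level with FEBJ was 1.73 times that with DMSO, a log2 fold change of 0.79 ± 0.06 (SE; adjusted p = 4.76e-43, Benjamini-Hochberg, from the edgeR quasi-likelihood test). The cynaroside change was -0.53 ± 0.06 (adjusted p = 2.2e-17, same test). FEBJ exceeded cynaroside by 1.32 ± 0.06 (adjusted p = 9.27e-106, same test). With library sizes taken from all deposited rows, cynaroside versus DMSO came to -0.07 and no longer passed (adjusted p = 0.474). That scaling moved the median of all tested genes in cynaroside versus DMSO to 0.45, and in FEBJ versus DMSO to 0.27.

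IER3 encodes a short-lived membrane-associated protein that prolongs ERK signalling and modulates cell death. Its row held 554 and 590 CPM with FEBJ, 73.0 and 77.6 CPM with cynaroside, and 440 and 488 CPM with DMSO. Both cynaroside libraries lay far below every other library. The fall with cynaroside was -2.61 ± 0.15 (adjusted p = 1.81e-60, Benjamini-Hochberg, from the edgeR quasi-likelihood test), a level 6.1 times lower than with DMSO, and 9 of the 1443 genes had a lower fold change. Against cynaroside, FEBJ was higher by 2.91 ± 0.15 (adjusted p = 6.7e-77, same test), or 7.52-fold. The IER3 own row, described below, showed neither of these differences. The FEBJ and DMSO libraries stood close, at 0.30 ± 0.12 (adjusted p = 0.0214, same test, 95% interval 0.06 to 0.54). This rise did not pass without the first FEBJ library (0.33, adjusted p = 0.0527), the second FEBJ library (0.26, adjusted p = 0.149) or the first DMSO library (0.22, adjusted p = 0.192), nor with DESeq2 (0.30, adjusted p = 0.0553) or upper-quartile scaling (0.23, adjusted p = 0.0834). It was likewise lost with an overlap of at least 200 bp, with protein-coding rows allowed, and among rows with at least 50% of their bases on the gene.

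CSRNP1 encodes a nuclear cysteine- and serine-rich protein that binds DNA and was first described as induced by axin. Its row held 187 and 201 CPM in the FEBJ libraries, 59.6 and 45.6 CPM in the cynaroside libraries, and 57.9 and 39.6 CPM in the DMSO libraries. The FEBJ libraries lay above all others, and the cynaroside and DMSO libraries overlapped. FEBJ exceeded DMSO by 2.02 ± 0.24 on the log2 scale, or 4.06-fold (adjusted p = 7.78e-17, Benjamini-Hochberg, from the edgeR quasi-likelihood test), and cynaroside by 1.94 ± 0.24, or 3.83-fold (adjusted p = 1.67e-15, same test). Cynaroside stood at 0.08 ± 0.27 against DMSO (adjusted p = 0.826, same test), with a 95% interval of -0.44 to 0.61 that leaves room for changes of that size either way. CSRNP1 is the thinnest of the readings, with 40 to 287 counts per library, and only 11.2% of its row faces the gene.

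NR4A1 encodes Nur77, an orphan nuclear receptor that acts as a transcription factor. It had 250 and 298 CPM with FEBJ, 432 and 397 CPM with cynaroside, and 119 and 128 CPM with DMSO. The 3 groups did not overlap, and cynaroside was highest. Cynaroside exceeded DMSO by 1.73 ± 0.15, or 3.32-fold (adjusted p = 3.74e-27, Benjamini-Hochberg, from the edgeR quasi-likelihood test), and 36 of the 1443 genes had a higher fold change. FEBJ exceeded DMSO by 1.15 ± 0.16, or 2.22-fold (adjusted p = 1.31e-12, same test). FEBJ was below cynaroside by -0.58 ± 0.14 (adjusted p = 8.16e-05, same test). Each of these calls was made under all 20 alternative settings run.

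CEBPB, which encodes C/EBP-beta, had 798 and 742 CPM in the FEBJ libraries, 316 and 356 CPM in the cynaroside libraries, and 748 and 683 CPM in the DMSO libraries. The FEBJ and DMSO libraries overlapped, and both cynaroside libraries lay below them. Cynaroside was below DMSO by -1.07 ± 0.10, or 2.1 times lower (adjusted p = 1.17e-22, Benjamini-Hochberg, from the edgeR quasi-likelihood test), and FEBJ was above cynaroside by 1.17 ± 0.10, or 2.26-fold (adjusted p = 3.11e-28, same test). FEBJ stood at 0.11 ± 0.10 against DMSO (adjusted p = 0.323, same test, 95% interval -0.08 to 0.30). Under the scaling from all deposited rows this value was 0.32 and passed (adjusted p = 0.0054). These values belong to a row with 8.72% of its bases on CEBPB exons.

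**Figure D3:**
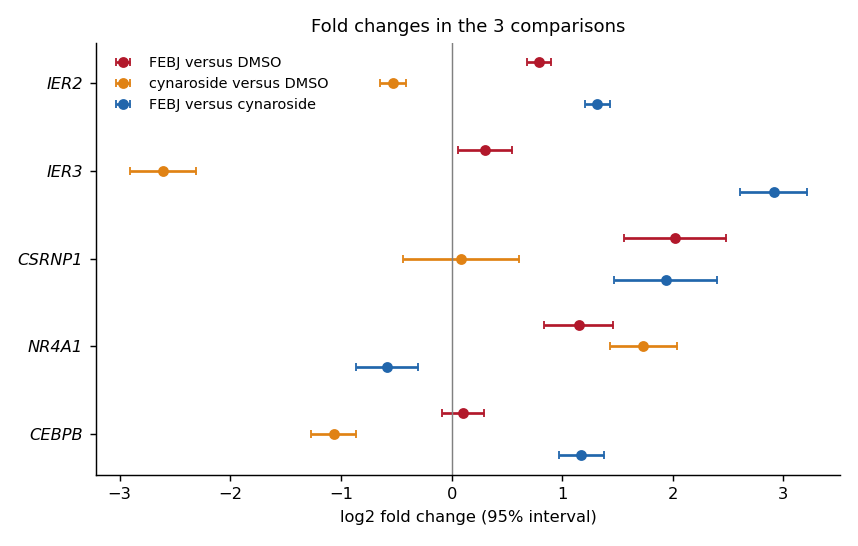
Log2 fold change of each gene (horizontal axis, points with 95% intervals) in FEBJ versus DMSO, cynaroside versus DMSO and FEBJ versus cynaroside. The intervals of CEBPB in FEBJ versus DMSO and of CSRNP1 in cynaroside versus DMSO cross 0.

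**Figure D4:**
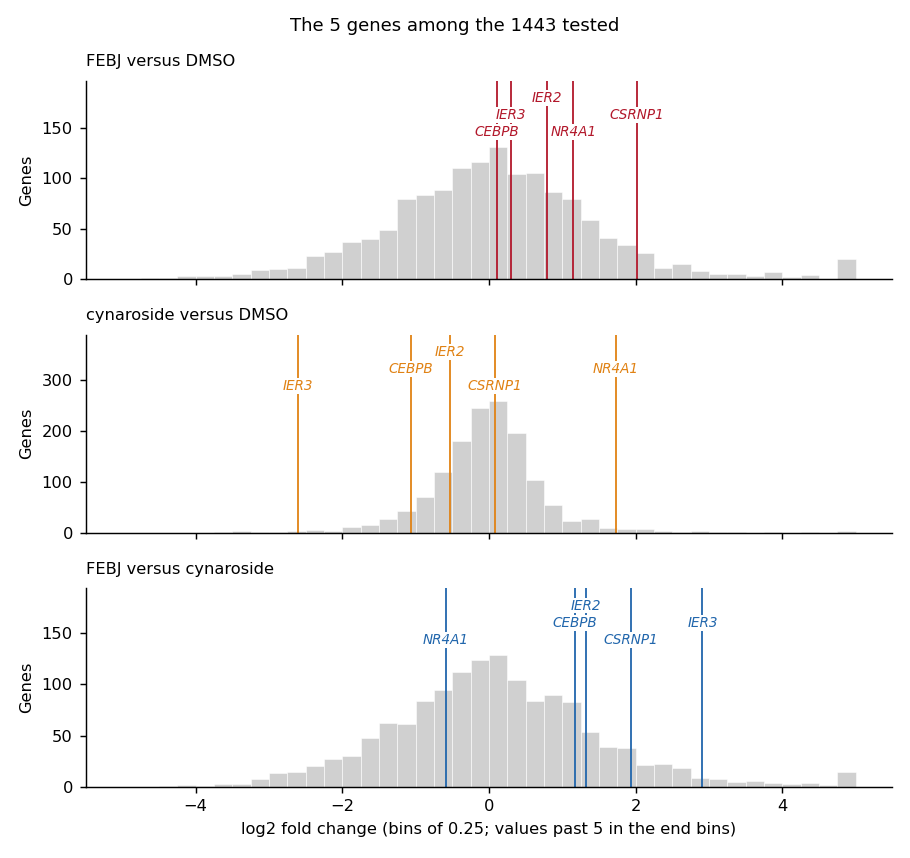
Histogram of the log2 fold changes of all 1443 tested genes (vertical axis, number of genes per bin of 0.25; values beyond 5 are in the end bins), with a line for each of the 5 genes. IER3 at -2.61 and NR4A1 at 1.73 lie toward opposite ends of the cynaroside distribution, whose centre is near 0.

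Compared per kilobase of row, the IER2 reading was the highest in every group, at 3034 CPM per kb with FEBJ, 1219 with cynaroside and 1755 with DMSO. CSRNP1 was the lowest, at 107, 28.9 and 26.8 CPM per kb in the same groups. Between them the order depended on the group. IER3 was second with FEBJ and with DMSO, at 1086 and 880 CPM per kb, and NR4A1 was second with cynaroside, at 453 CPM per kb, where IER3 had 143 CPM per kb and CEBPB 127 CPM per kb. With FEBJ, NR4A1 at 273 to 325 and CEBPB at 280 to 301 CPM per kb overlapped between libraries. This ranking rests on the length of the whole row. Per kilobase of overlap with the gene, CSRNP1 was no longer the lowest in any group. It lay above NR4A1 with FEBJ (951 and 363 CPM per kb) and DMSO (239 and 164) and above IER3 with cynaroside (258 and 210). On that scale CEBPB came to 3333 CPM per kb with FEBJ, 1455 with cynaroside and 3098 with DMSO, above IER2 in each group. This scale divides the counts of the whole row by the overlap alone. Reads outside the overlap are included, so it can overstate CSRNP1 and CEBPB, whose rows lie mostly off the gene's exons.

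Ratios within a library do not depend on how libraries are scaled. The IER3 count was 19.2 and 20.7% of the IER2 count in the FEBJ libraries, 6.29 and 6.77% in the cynaroside libraries, and 26.5 and 29.3% in the DMSO libraries. The NR4A1 count was 8.65 and 10.4% of that of IER2 with FEBJ, 37.2 and 34.7% with cynaroside, and 7.17 and 7.72% with DMSO. Relative to IER2, then, the cynaroside libraries stood apart from all others in both, low for IER3 and high for NR4A1. CEBPB stood at 27.6 and 26.0% with FEBJ, 27.2 and 31.1% with cynaroside, and 45.2 and 41.1% with DMSO, so the FEBJ and cynaroside libraries overlapped and DMSO lay above them. CSRNP1 stood at 6.47 and 7.05% with FEBJ, 5.14 and 3.98% with cynaroside, and 3.49 and 2.38% with DMSO. Together the 5 genes held 0.513 and 0.513% of the counts of the opposite-strand reading with FEBJ, 0.199 and 0.198% with cynaroside, and 0.281 and 0.280% with DMSO, most of them from IER2.

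The own rows of these genes held few counts. The IER2 row had 28 and 19 counts with FEBJ, 12 and 17 with cynaroside, and 17 and 39 with DMSO. The IER3 row had 20 and 18, 10 and 28, and 18 and 28 counts in these groups. It stood at 0.08 in cynaroside versus DMSO (95% interval -1.20 to 1.36), which excludes the reading's -2.61. FEBJ versus cynaroside was -0.11 (-1.40 to 1.18), which excludes the reading's 2.91. Own-row intervals of IER2, CSRNP1 and CEBPB included their readings in every comparison. Why IER3 differed was not tested. The NR4A1 row had 4 and 2 with FEBJ, 0 and 0 with cynaroside, and 0 and 11 with DMSO, and did not pass the filter. Among the other 4 own rows, each tested in 3 comparisons over 12012 deposited rows, the one call was CEBPB in FEBJ versus cynaroside, where 21.5% of all tested rows rose and 20.4% fell. In either direction, 50.8% of all rows were called in FEBJ versus DMSO, 45.4% in cynaroside versus DMSO and 41.9% in FEBJ versus cynaroside. The CEBPB own row had 40 and 41 counts with FEBJ and 8 and 18 with cynaroside, a difference of 1.47 ± 0.56 (adjusted p = 0.0338, Benjamini-Hochberg, from the edgeR quasi-likelihood test). It was lost without the first FEBJ library (1.24, adjusted p = 0.2), the first cynaroside library (1.52, adjusted p = 0.0615) or the second cynaroside library (1.32, adjusted p = 0.146), and under both looser filters on low counts.

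Of 48 other immediate early genes listed, 2 had an opposite-strand reading that was tested. IER5L, a nuclear relative of IER2, had 1138 and 1024 CPM with FEBJ, 198 and 230 CPM with cynaroside, and 333 and 338 CPM with DMSO, changes against DMSO of 1.68 ± 0.11 for FEBJ and -0.62 ± 0.12 for cynaroside (adjusted p = 1.67e-53 and 2.09e-06, Benjamini-Hochberg, from the edgeR quasi-likelihood test). BTG1, an antiproliferative cofactor, had 774 and 751 CPM, 194 and 178 CPM, and 525 and 457 CPM in the same groups, changes of 0.64 ± 0.11 and -1.41 ± 0.13 (adjusted p = 1.59e-08 and 2.1e-27, same test). Both were thus highest with FEBJ and lowest with cynaroside, the order that IER2 showed, though the rows read have only 16.0% of their bases on IER5L and 4.28% on BTG1. The fall of IER5L with cynaroside was -0.15 and did not pass with library sizes from all deposited rows.

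Genes of MAP kinase feedback, induced by ERK signalling, were listed 17 strong, and 2 had a tested reading. PHLDA1, an early ERK-induced protein, had 1775 and 1766 CPM with FEBJ, 466 and 528 CPM with cynaroside, and 1210 and 1279 CPM with DMSO. It rose with FEBJ, by 0.51 ± 0.07, and fell with cynaroside, at -1.30 ± 0.08 (adjusted p = 6.25e-13 and 1.43e-61, Benjamini-Hochberg, from the edgeR quasi-likelihood test), and its rows lie 97.2 and 100% on the gene. DUSP6, the phosphatase that inactivates ERK, had 275 and 219 CPM, 109 and 103 CPM, and 145 and 176 CPM in the same groups, changes of 0.61 ± 0.17 and -0.62 ± 0.19 (adjusted p = 0.000843 and 0.00348, same test). The DUSP6 rise was lost without the first FEBJ or the first DMSO library, and its fall without the second cynaroside or the second DMSO library and with library sizes from all deposited rows (-0.15). In each of the lists of immediate early and feedback genes, both tested readings rose with FEBJ and fell with cynaroside, where 35.9% and 21.5% of all genes did. These readings are too few to set against those shares, and the lists were chosen with earlier results known. With FEBJ the own rows of PHLDA1 and BTG1 stood at -1.61 and -0.79, and neither passed. The list medians were 1.16 and -1.02 for immediate early genes and 0.56 and -0.96 for feedback genes. Among 4 tested own rows of feedback genes, 1 rose with FEBJ, ERRFI1, a call lost in 10 of 13 alternatives, and 1 rose with cynaroside, DUSP16 (1.01 ± 0.27, adjusted p = 0.00362, same test). Of all deposited rows 26% rose with FEBJ and 24.3% with cynaroside, and 4 rows are too few to set against these shares.

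**Figure D5:**
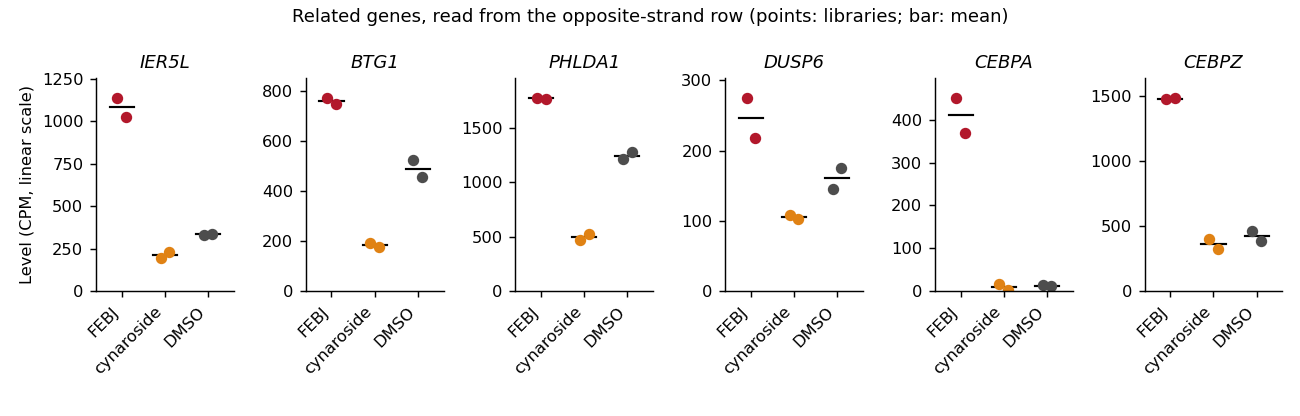
Level of related genes (vertical axes, CPM of the row opposite, linear from 0, each with its own range) in the FEBJ, cynaroside and DMSO libraries; points are libraries and bars are means of 2. In each panel both FEBJ libraries lie above all cynaroside and DMSO libraries.

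Relatives of the C/EBP, IER, NR4A and CSRNP families, taken by name, were listed 11 strong, and 3 had a tested reading, IER5L among them. CEBPA, the C/EBP factor that drives hepatocyte and adipocyte differentiation, had 451 and 369 CPM with FEBJ, 16.4 and 2.03 CPM with cynaroside, and 14.2 and 11.1 CPM with DMSO. Its FEBJ libraries stood far above the rest, by 5.03 ± 0.25 over DMSO (adjusted p = 8.31e-82, Benjamini-Hochberg, from the edgeR quasi-likelihood test), and cynaroside was at -1.06 ± 0.48 against DMSO (adjusted p = 0.0596, same test). That last value rested on single libraries, at -2.54 and past the test without the first cynaroside library and at 0.40 without the second. Both rows read for CEBPA lie wholly on its exons. Of the 7 hepatocyte marker rows, SERPINA1 was likewise high with FEBJ, at 10.7 and 10.5 CPM, against 0 CPM in both cynaroside libraries and 0.707 and 0.243 CPM with DMSO. ALB, TTR, HNF4A and FGB were at 0 in all libraries, APOA1 and APOB had no more than 3 counts in any, and the part of such cells in the CEBPA rise was not tested. CEBPZ, named for CCAAT binding and active in ribosome assembly, had 1472 and 1485 CPM with FEBJ, 399 and 327 CPM with cynaroside, and 465 and 389 CPM with DMSO, a rise of 1.80 ± 0.09 with FEBJ (adjusted p = 6.76e-82, same test). The CEBPZ own row, by contrast, fell with FEBJ (-0.85 ± 0.12) and rose with cynaroside (0.77 ± 0.11), and 10.7% of the row opposite lies on the gene. With the own row added to the reading, the rise with FEBJ was 0.78 and still passed. The small fall of the CEBPZ reading with cynaroside, -0.26 ± 0.10, was lost in 7 alternatives and turned positive in 2, with library sizes from all deposited rows and with the own row added, at 0.21 the highest. Own rows of NR4A2 and NR4A3, the sister receptors of NR4A1, held 1 and 6 counts in all, and those of CSRNP3, CEBPE and CEBPG held 1, 1 and 15. Of the other relatives, the CSRNP2 own row had 9.15 and 10.8 CPM with FEBJ, 47.3 and 31.0 CPM with cynaroside, and 11.0 and 7.05 CPM with DMSO, so the CSRNP1 relative was high with cynaroside, by 2.11 ± 0.39 over DMSO (adjusted p = 8.12e-05, same test). The CEBPD own row rose with FEBJ (1.97 ± 0.74, adjusted p = 0.0288, same test) and the IER5 own row fell with FEBJ (-1.03 ± 0.43, adjusted p = 0.0474, same test) and with cynaroside (-1.18 ± 0.44, adjusted p = 0.0321, same test). These calls were lost in 4, 6 and 4 of 13 alternatives, among them the loss of either FEBJ library for CEBPD and of either DMSO library for IER5. In all, 4 own rows of relatives were tested, of which 1 rose and 2 fell with FEBJ and 2 rose and 1 fell with cynaroside. Over all 12012 deposited rows 26% rose and 24.8% fell with FEBJ, and 24.3% rose and 21.1% fell with cynaroside, and 4 rows are too few to set against these shares.

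Of 26 factors and kinases upstream of immediate early transcription, 3 had a tested reading. All 3 fell with FEBJ, where 34.5% of all genes fell, and 3 are too few to set against that share. ELK3, a ternary complex factor that binds with SRF, had 44.2 and 45.5 CPM with FEBJ, 268 and 286 CPM with cynaroside, and 412 and 380 CPM with DMSO, a change of -3.13 ± 0.18 with FEBJ (adjusted p = 3.74e-62, Benjamini-Hochberg, from the edgeR quasi-likelihood test). Its own row fell too, at -2.45 ± 0.61. CRTC3, a CREB coactivator, and MAP2K1, the kinase MEK1, changed by -0.65 ± 0.17 and -0.60 ± 0.16 with FEBJ (adjusted p = 0.000209 and 0.000236, same test). The CRTC3 own row moved the other way, with a rise of 1.99 ± 0.41, and the fall of its reading was lost without the first DMSO library and with the own row added (-0.20). The MAP2K1 own row, at 0.16 ± 0.30 with FEBJ, did not pass. The rows read lie 12.3 and 10.8% on CRTC3, 19.9% on MAP2K1 and 39.8% on ELK3. With cynaroside, ELK3 was at -0.50 ± 0.15 (adjusted p = 0.0023, same test), a call lost without the first DMSO library and under the scaling from all deposited rows (-0.04), and the other two did not pass. Of the own rows on this list, 20 were tested, of which 2 rose and 5 fell with FEBJ, where 24.8% of all deposited rows fell, and 1 rose and 7 fell with cynaroside, where 21.1% fell. The share fallen with FEBJ is thus close to that of all rows. Of all deposited rows 26% rose with FEBJ and 24.3% with cynaroside. Of the protein-coding rows with no exon on the other strand, 12% and 8.48% rose and 34.6% and 39.1% fell. The falls with cynaroside are no more frequent than in that class. The 3 rises were those of CRTC3 and MEF2A with FEBJ and of CREB1 with cynaroside (1.12 ± 0.30, lost without the second cynaroside library), where MEF2A is named after its values were seen.

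Most immediate early genes could be read only from their own rows, where counts are low. Own rows and readings often differed with FEBJ. ELK3 fell in both, whereas CEBPZ (-0.85 own, 1.80 reading) and CRTC3 (1.99 own, -0.65 reading) moved in opposite directions. Own rows of PHLDA1, BTG1 and MAP2K1 had the sign opposite to their readings and did not pass. An own-row change is thus that of the row, and whether it holds for the gene's RNA was not tested. Of the 48 listed, 25 own rows were tested, of which 3 rose and 10 fell with FEBJ and 1 rose and 17 fell with cynaroside, with medians of -1.37 and -2.32. The rises were those of PPP1R15A, GADD45A and GADD45B with FEBJ and of MAFF with cynaroside, the last named after its values were seen. Protein-coding rows with no exon opposite, 3892 in all, had medians of -1.03 with FEBJ and -1.41 with cynaroside, and 34.6% and 39.1% of them fell, against 24.8% and 21.1% of all deposited rows. In the same class 12% rose with FEBJ and 8.48% with cynaroside, against 26% and 24.3% of all deposited rows. FOSL1, an AP-1 subunit, had 5.97 and 6.52 CPM with FEBJ, 13.7 and 27.5 CPM with cynaroside, and 58.0 and 50.8 CPM with DMSO, and fell with both, at -3.10 ± 0.35 for FEBJ and -1.31 ± 0.31 for cynaroside (adjusted p = 1.93e-08 and 0.00115, Benjamini-Hochberg, from the edgeR quasi-likelihood test). CCN1, a matricellular protein and Hippo target, fell likewise, at -4.28 ± 0.40 and -1.98 ± 0.33 (adjusted p = 4.46e-10 and 1.89e-05, same test). FOS and EGR1, textbook members of the class, held 1 and 33 counts in all libraries together and were not tested.

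Known targets of C/EBP-beta, 25 listed, had 6 tested own rows, of which 1 rose and 2 fell with FEBJ and all 6 fell with cynaroside. Of all deposited rows 24.8% fell with FEBJ and 21.1% with cynaroside, and of the protein-coding rows with no exon opposite 34.6% and 39.1% fell. These 6 rows are too few to set against those shares. The list's 1 tested opposite-strand reading, CEBPA, described above, rose with FEBJ and did not pass with cynaroside. The falls of PTX3, a secreted pentraxin, were -2.68 ± 0.89 with FEBJ and -2.89 ± 0.94 with cynaroside (adjusted p = 0.0135 and 0.0139, edgeR quasi-likelihood test), and were lost in 4 and 3 of 13 alternatives, among them the loss of either DMSO library. SOD2, the mitochondrial superoxide dismutase, had 423 and 446 CPM with FEBJ, 192 and 219 CPM with cynaroside, and 289 and 278 CPM with DMSO, with changes of 0.62 ± 0.10 for FEBJ and -0.45 ± 0.10 for cynaroside (adjusted p = 3.65e-06 and 0.000625, Benjamini-Hochberg, from the edgeR quasi-likelihood test). Of 11 partners and regulators of C/EBP factors, 5 own rows were tested. Of all deposited rows 26% rose with FEBJ and 24.3% with cynaroside, 24.8% and 21.1% fell, and 5 rows are too few to set against these. With FEBJ, TRIB3 rose, a call lost in 10 of 13 alternatives, and ATF5 fell, a call lost without the second FEBJ library. With cynaroside, ATF4 and STAT3 fell, STAT3 not without the second DMSO library. ATF4, a partner in the amino acid response, was at -2.39 ± 0.47 with cynaroside (adjusted p = 0.000177, same test).

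Genes with the most similar pattern were sought by the root mean square distance between log2(CPM + 1) values centred on their mean over the 6 libraries, among 1086 tested genes of at least 50 CPM. IER2 was nearest to UBB, a polyubiquitin gene, at 0.03, and FAM86C1P, a pseudogene, was at 0.05. UBB had 32736 and 32156 CPM with FEBJ, 13714 and 13728 CPM with cynaroside, and 18905 and 19200 CPM with DMSO, the same order with small spread. IER3 was nearest to HEXIM1, the inhibitor of P-TEFb, at 0.32, then to GLYCTK at 0.38 and INTS6 at 0.46. CSRNP1 was nearest to the zinc finger gene ZNF155 at 0.12, to CEBPZ at 0.17 and to EFNB2 at 0.21. NR4A1 was nearest to ELAVL1, an RNA-stabilising protein, at 0.15, and next to BCL2L11, whose reading comes from MIR4435-2HG with 5.55% of its bases on the gene, at 0.26, and FAHD2A at 0.28. CEBPB was nearest to UXT, a prefoldin-like protein, at 0.12, with RNF14 and OXCT1 at 0.14 each. Among the 5 genes, IER2 and CEBPB were closest at 0.31 and IER3 and NR4A1 farthest at 1.88.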

How the data were processed

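Total RNA of 6 LX-2 libraries was sequenced, 2 per group. Per the submitters' processing notes, CASAVA 1.7, HISAT2, HTSeq 0.12.4 and DESeq2 1.38.0 were used with hg19. The deposited values are raw counts per gene row, 62754 rows in each table. The strand setting and annotation release are not given in the sources used here. Summary rows, which held 93.9 to 94.5% of the counts, were left out.

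From these counts, overlaps on opposite strands were taken from GENCODE 29 on GRCh38, which is not the build of the files, so no positions from the files are given. A non-coding row stood for a protein-coding gene if it shared 50 or more exon bases with that gene alone and had no fewer counts than the own row of the gene. The 1699 gene readings were tested together with edgeR 4.0.16 in R 4.3.3, with filterByExpr, TMM, 1 mean per group over all 6 libraries (3 residual degrees of freedom), the quasi-likelihood test and Benjamini-Hochberg adjustment over the 1443 genes kept. A gene rose or fell at an adjusted p of 0.05 or less. The deposited rows, 12012 kept, were tested alike. For the readings, the spread shared over genes almost wholly outweighed the 3 residual degrees of freedom of each gene. CPM are counts over the TMM library size times 1e6, of the reading or of the deposited rows, and values are ± SE for fold changes. The scripts were tested on simulated data. The genes and lists were chosen with earlier results of these data known. Named besides the 5 genes were, per list and reading, up to 3 genes of smallest p in each comparison with DMSO, and the 3 nearest patterns; some of these genes are not reported here. Alternatives were other scalings, filters and overlap rules, DESeq2 1.42.0, a replicate block and each library left out. Counts within groups differed beyond sampling noise, with a mean chi-square per row of 3.03 to 3.19.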

Additional observations from a re-analysis of the deposited data

How the results depend on the processing

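No called change of the 5 genes turned its direction under any alternative. In FEBJ versus DMSO, the genes risen numbered 4, and 3 to 4 with each library left out, the one lost being IER3. In cynaroside versus DMSO they were 1 risen and 3 fallen, and in FEBJ versus cynaroside 4 risen and 1 fallen, with each library left out. Among rows with at least 50% of their bases on the gene, a setting chosen after seeing the data, 3 of the 5 genes remain, IER2, IER3 and NR4A1, and 2 rose in FEBJ versus DMSO and 2 in FEBJ versus cynaroside. Counts over all genes grew when protein-coding rows were also allowed, because 2290 genes were then tested: 806 rose and 785 fell in FEBJ versus DMSO, 796 rose and 786 fell in FEBJ versus cynaroside, and 500 rose and 520 fell in cynaroside versus DMSO. Library sizes from all deposited rows gave 736 risen and 100 fallen in cynaroside versus DMSO, 88% risen among the called against 48.2%, and 40.9% against 51% in FEBJ versus cynaroside. The cause was not tested. Among deposited rows, those fallen in cynaroside versus DMSO numbered 2537, and 1543 to 2649 with each library left out, the fewest without the second and next 1618 without the first DMSO library. Same-numbered libraries did not deviate together (r from -0.08 to 0.03), and with the replicate number as a block the calls of the 5 genes did not change, IER3 in FEBJ versus DMSO being 0.30 (adjusted p = 0.022, edgeR). Depth limits CSRNP1 most among the 5 genes, at 40 counts in the shallowest library.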

Other observations

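Of the 25 tested own rows of listed immediate early genes, 3 rose with FEBJ, PPP1R15A, GADD45B and GADD45A, and these 3 fell with cynaroside. They are described here because they rose, and 10 others on the list fell with FEBJ, among them PLK2 (-3.89 ± 0.66), MCL1 (-2.30 ± 0.64) and IER5 (-1.03 ± 0.43). Of all deposited rows 26% rose with FEBJ, and of the protein-coding rows with no exon opposite 12% rose. The 3 rises among 25 rows are no more than these shares. PPP1R15A, the GADD34 subunit that directs phosphatase to eIF2-alpha, had 37.0 and 42.8 CPM with FEBJ, 0 and 0.504 CPM with cynaroside, and 15.9 and 9.72 CPM with DMSO. It rose by 1.66 ± 0.38 with FEBJ (adjusted p = 0.000563, Benjamini-Hochberg, from the edgeR quasi-likelihood test), under all 13 alternatives run. With cynaroside 2 counts stood against 85 with DMSO, a level 33.2 times lower (95% counting interval 8.91 to 279). GADD45B, a relative of GADD45A, had 28.6 CPM in both FEBJ libraries, 0 and 0.504 CPM with cynaroside, and 17.0 and 8.75 CPM with DMSO. Its rise with FEBJ, 1.18 ± 0.43 (adjusted p = 0.0234, same test), was lost without either FEBJ library, without the second DMSO library, with DESeq2 and with no filter. GADD45A, a growth arrest gene, had 58.1 and 56.7 CPM with FEBJ, 6.86 and 2.52 CPM with cynaroside, and 35.0 and 38.9 CPM with DMSO. It fell with cynaroside, at -3.25 ± 0.38 (adjusted p = 7.38e-08, same test), and its rise with FEBJ, 0.63 ± 0.27 (adjusted p = 0.049, same test), was lost in 9 of 13 alternatives.

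The own row of ELK1, the ternary complex factor related to ELK3, had no count in either FEBJ library. It had 0 and 14 counts in the cynaroside libraries, and 71 counts in the DMSO libraries together. With 3 counts as the limit over the FEBJ group, its level was at least 20.6-fold lower than with DMSO. Intervals and limits cover counting error only.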
